A study of Rattus norvegicus with 30 samples.

Results

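Rat primary cells from the collecting duct of the inner medulla were raised by the same osmolality increment from 2 starting points, and the response of each gene at 24 h was compared between the 2 upward steps. The first step took cells from 300 to 600 mosmol/kg and the second took cells from 600 to 900 mosmol/kg. For every gene the interaction was calculated as the change of the second step, cells of 600 mosmol/kg challenged for 24 h with 900 minus steady 600, less the change of the first step, cells of 300 mosmol/kg challenged for 24 h with 600 minus steady 300. A positive interaction therefore means a more positive (or less negative) change in the second step. The samples were chosen by their titles alone, and 12 of the 30 arrays of the series belong to the 4 groups, with 3 arrays in each. Both steps added 300 mosmol/kg, which multiplied the osmolality of the medium by 2 in the first step and by 1.5 in the second. Steady 300 and steady 600 cells were cultivated throughout at that osmolality. The source of all 4 groups is the renal inner medulla of the rat, and the labels name no genotype, sex, age or strain. A treatment with 5 µM cyclosporin A, an inhibitor of calcineurin, is entered for all samples without appearing in a single title, so it is not settled whether all, some or none of these cultures received it. How long the steady cultures were kept, and which solute was added, is not stated in the sources used here.

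The inner medulla is the most concentrated tissue of the kidney, and its collecting duct cells live in an interstitium whose NaCl and urea rise and fall with the state of water balance. Cells that face a hypertonic medium first shrink and gain inorganic ions. The transcription factor Nfat5 (also called TonEBP) then raises genes that make or import compatible organic osmolytes such as sorbitol, myo-inositol, taurine and betaine, along with chaperones of the Hsp70 and Hsp110 families. The comparison sets the response to the second of 2 equal increments beside the response to the first.

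Values are log2 signals of the authors' robust multi-array average, and changes are log2 differences with the standard error (SE) of a limma fit over all 30 arrays, n = 3 arrays per group. Adjusted p is limma's p-value after Benjamini-Hochberg adjustment over 14506 genes, judged at 0.05, and a gene is called when it passes. Rose and fell are used only for called changes. Arrays of a group correlated at 0.9968 to 0.9976, and the lowest correlation among the 12 arrays was 0.9486. Whether the 3 arrays of a group stem from different cultures or animals is not recorded. The p-values reflect the spread within groups, pooled over all 30 arrays, including those outside the 4 compared groups. That spread could be purely technical. Epithelial keratin and cadherin genes were high: Krt8 averaged 12.10 in steady 300 and 11.78 in steady 600, and Cdh16 10.003 and 11.64. The defining genes of the principal cell, the water-transporting cell of the duct, were low in steady 300, where the vasopressin-regulated water channel Aqp2 averaged 5.61 against 10.07 in steady 600, and the vasopressin receptor Avpr2 5.36 against 8.33. In whole cultures such as these, fewer cells of a type and less RNA per cell cannot be told apart. The ends of the scale were marked at 5.01, the 30th percentile of all gene values (floor), and 11.54, the 99th percentile (ceiling), because array values flatten there.

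The steps differed in 1877 of 14506 genes (12.9%), with 1085 positive interactions (7.48%) and 792 negative ones (5.46%). Interactions of at least 2-fold were found in 289 genes (1.99%), 204 positive (1.41%) and 85 negative (0.586%). Each step on its own changed more genes than differed between the steps. The first step called 3242 genes (22.3%), of which 1363 rose (9.4%) and 1879 fell (13.0%). The second called 3763 genes (25.9%), of which 1631 rose (11.2%) and 2132 fell (14.7%). The balance among larger changes was not the same. At least 2-fold, 68 genes rose (0.469%) and 365 fell (2.52%) in the first step, 433 in all (2.98%), against 158 that rose (1.09%) and 218 that fell (1.5%) in the second, 376 in all (2.59%). The total of 1877 became 966 without the arrays numbered 3 and 9, 2976 when the fit held the 12 compared arrays only, and 3468 with array weights. Settings of scaling, filter and single arrays left out moved it by less than 1.5 times.

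The 95% interval of the interaction lay within 0.5 of 0 on the log2 scale in 7641 genes (52.7%), of which 5940 were called in neither step. The 7641 became 6730 to 6989 when 1 array was left out and 4501 without the arrays numbered 3 and 9. Over the 14506 genes the changes of the 2 steps had a Pearson correlation of 0.565 and a Spearman correlation of 0.419, and over the 1769 genes called in both steps 0.771 and 0.778. These are descriptions across genes, which are not independent replicates. The 2 steps share no array. Of the genes called in both, 604 rose in both (4.16%) and 988 fell in both (6.81%), while 67 rose in the first and fell in the second (0.462%) and 110 did the opposite (0.758%). Among the 604 that rose in both, 80 had a positive and 27 a negative interaction, and 366 had an interval within 0.5 of 0. Among the 988 that fell in both, 190 had a positive interaction, meaning a smaller fall in the second step, and 81 a negative one. A further 917 genes rose only by the test of the second step and 692 only by that of the first, and the interaction was called in 346 and 181 of these. Of 1077 genes that passed as lower in the second step alone, 405 had a called interaction, as did 328 of the 781 lower in the first step alone. At the edge of the threshold, Septin1 was the last gene inside, with an interaction of 0.42 ± 0.14 and an adjusted p of 0.0499, and Glrx3 the first outside, at -0.34 ± 0.11 and 0.0501.

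**Figure D1:**
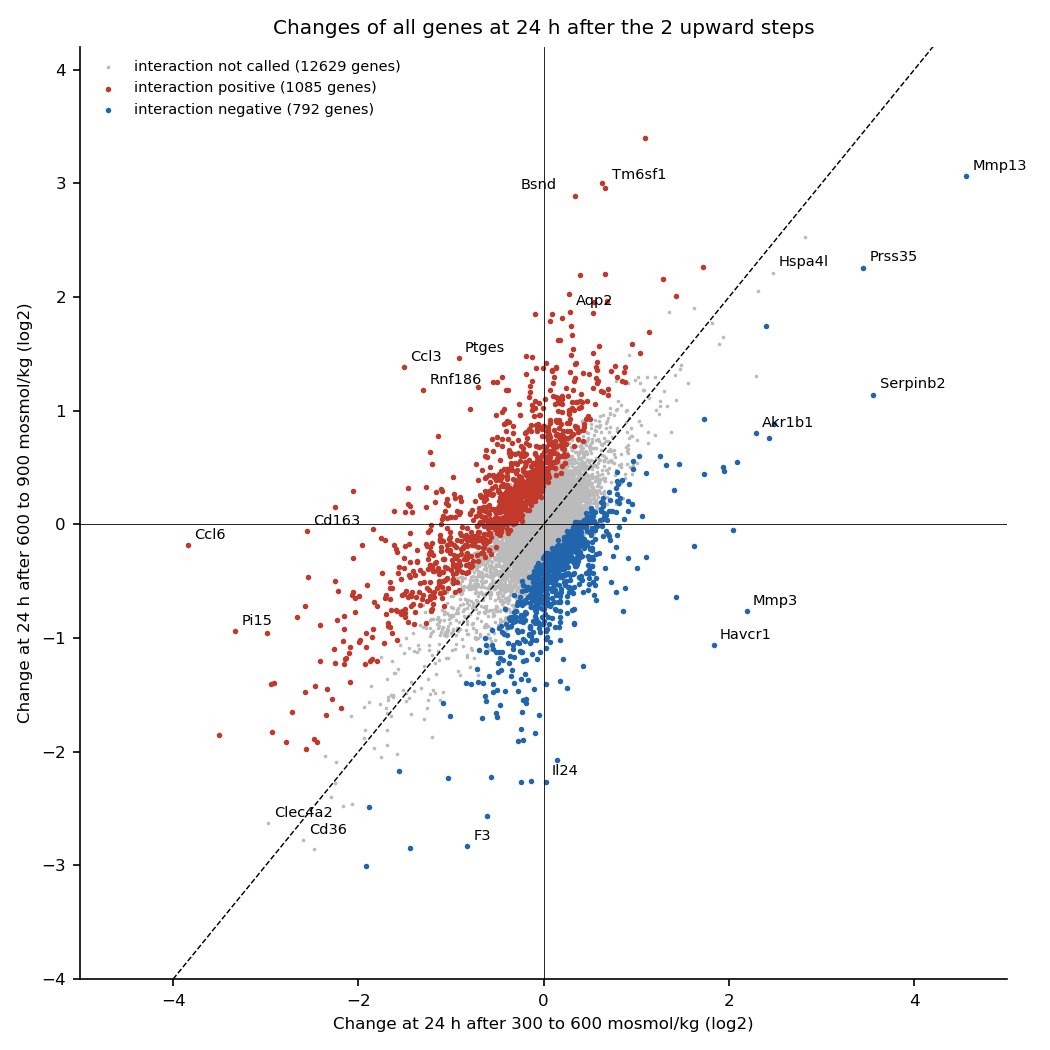
Each point is 1 of 14506 genes, with its log2 change at 24 h after the step from 300 to 600 mosmol/kg on the x axis and after the step from 600 to 900 mosmol/kg on the y axis; red and blue points have a called positive (1085) or negative (792) interaction and the dashed line marks equal changes. Mmp3 and Havcr1 lie right of 0 and below 0, Ccl3 and Rnf186 left of 0 and above 0, and Hspa4l and Cd36 near the dashed line.

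Among the 67 genes that rose after the first step and fell after the second, the rule of the largest smaller change picked Mmp3, Havcr1, Clec4d, Cyp1a1 and Padi1. Mmp3 read 5.20, 5.71 and 5.55 in steady 300, 7.82, 7.76 and 7.46 after the step to 600, 5.99, 6.19 and 6.41 in steady 600 and 5.42, 5.43 and 5.44 after the step to 900. Mmp3 encodes stromelysin-1, a secreted protease of the extracellular matrix. It rose by 2.19 ± 0.14 in the first step and changed by -0.77 ± 0.14 in the second, an interaction of -2.96 ± 0.20 (adjusted p = 1.38e-11) and the most negative of all genes named. The groups did not overlap in either step, and cells that reached 600 mosmol/kg 24 h earlier stood above cells kept at 600. Havcr1 read 7.50, 7.36 and 7.16 in steady 300, 9.26, 9.01 and 9.26 after the step to 600, 8.10, 8.32 and 8.37 in steady 600 and 7.07, 6.95 and 7.58 after the step to 900. Havcr1 encodes kidney injury molecule 1, a membrane protein known for its appearance on damaged proximal tubule cells. It changed by 1.83 ± 0.14 and then by -1.06 ± 0.14, an interaction of -2.90 ± 0.20 (adjusted p = 3.1e-11). Again no arrays overlapped within a step, with replicate 9 the highest of the last group. In the other groups of the series Havcr1 averaged 8.09 ± 0.03 (SD) at 48 h after the first step and 10.29 ± 0.06 in cells returned from 900 to 300 mosmol/kg.

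The other genes of this kind had smaller opposite changes. Clec4d, a C-type lectin receptor of myeloid cells, changed by 0.86 ± 0.14 and -0.76 ± 0.14, with an interaction of -1.62 ± 0.20 (adjusted p = 1.16e-06). Padi1, an enzyme that converts arginine residues of proteins to citrulline, changed by 0.78 ± 0.10 and -0.60 ± 0.10 from very different starts, 5.84 to 6.09 in steady 300 and 9.06 to 9.33 in steady 600. Cyp1a1 read 3.33, 4.25 and 4.79 in steady 300, 5.79, 5.62 and 5.23 after the step to 600, 5.88, 6.34 and 6.25 in steady 600 and 5.56, 5.41 and 5.58 after the step to 900. Cyp1a1, the cytochrome P450 induced through the aryl hydrocarbon receptor, had its widest spread in steady 300, where all 3 arrays lay under the floor. Its changes of 1.42 ± 0.22 and -0.64 ± 0.22 gave an interaction of -2.06 ± 0.31 (adjusted p = 1.67e-05), with no overlap in either step. The number of genes that rose and then fell was 42 without steady 600 replicate 3, against 67 with all arrays.

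The metalloproteinase genes Mmp3 and Mmp13 lie close together on chromosome 8 and took different courses, so the 250 bases before the start of each are shown. Mmp13, collagenase-3, had the largest rise of the first step among the genes named and rose again in the second. The sequences are RefSeq's for GRCr8, plus strand, Mmp3 at chr8:12925031-12925280 and Mmp13 at chr8:12782579-12782828, and capitals mark the letters TGGAAA, the core of the site bound by Nfat5, and TGAGTCA, the site bound by AP-1 factors such as Fos and Jun, on either strand.
Mmp3: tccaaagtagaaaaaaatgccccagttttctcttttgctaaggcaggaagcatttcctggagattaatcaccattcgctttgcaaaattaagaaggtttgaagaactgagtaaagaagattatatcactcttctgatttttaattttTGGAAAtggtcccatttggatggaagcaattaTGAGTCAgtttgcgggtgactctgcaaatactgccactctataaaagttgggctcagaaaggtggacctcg
Mmp13: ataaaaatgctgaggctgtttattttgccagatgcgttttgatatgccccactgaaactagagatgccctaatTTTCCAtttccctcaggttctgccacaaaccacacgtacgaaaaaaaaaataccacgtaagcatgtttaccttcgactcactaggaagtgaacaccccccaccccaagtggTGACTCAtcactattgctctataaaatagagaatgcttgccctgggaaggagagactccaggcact
Both promoters held 1 match of each. TGGAAA or its reverse complement stood 103 bases before the start in Mmp3 and 177 in Mmp13, and TGAGTCA or its reverse complement 71 and 66. Of 27457 promoters of 300 bases (250 before to 50 after the start), 22.4% held TGGAAA and 4.53% held TGAGTCA. The letters TGGAAA were found in 18.9% of the promoters of genes that rose in both steps, 18.8% of those that fell in both, 17.9% of those with a rise followed by a fall and 21.3% of those with the opposite course, against 19.5% of all tested genes with a promoter in the table (11968 of 14506). The search of TGAGTCA was added after the values had been seen. A match of letters describes the sequence and shows no binding.

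The 110 genes that fell and then rose were led by Ccl3, Rnf186, Ptges, Iah1 and Usp18. Ccl3 read 9.33, 9.35 and 9.28 in steady 300, 7.72, 7.96 and 7.75 after the step to 600, 5.84, 5.79 and 5.54 in steady 600 and 7.09, 7.11 and 7.12 after the step to 900. Ccl3 is the chemokine MIP-1 alpha, which attracts monocytes and is made mainly by myeloid cells. Its changes were -1.51 ± 0.15 and 1.38 ± 0.15, an interaction of 2.89 ± 0.21 (adjusted p = 5.25e-11). No arrays overlapped within a step, and the mean at the end of the second step (7.11) lay below that at the end of the first (7.81). Rnf186 read 8.92, 8.86 and 8.87 in steady 300, 7.67, 7.63 and 7.44 after the step to 600, 8.90, 8.50 and 8.72 in steady 600 and 9.92, 9.84 and 9.89 after the step to 900. Rnf186 encodes a membrane-bound RING-type ubiquitin ligase. It fell by 1.30 and rose by 1.18 ± 0.09, starting from levels that were much alike in steady 300 and steady 600, and its interaction was 2.48 ± 0.12 (adjusted p = 5.96e-14). Rnf186 averaged 9.99 ± 0.08 (SD) in steady 900, near its level at 24 h after the second step.

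Ptges read 7.47, 7.48 and 7.22 in steady 300, 6.42, 6.43 and 6.56 after the step to 600, 6.83, 6.27 and 6.08 in steady 600 and 7.80, 7.87 and 7.89 after the step to 900. Ptges, the inducible prostaglandin E synthase that acts after cyclooxygenase, changed by -0.92 ± 0.14 and 1.46 ± 0.14, with an interaction of 2.38 ± 0.20 (adjusted p = 1.43e-09). All 3 arrays after the second step stood above every other array of the 4 groups. The cyclooxygenase gene upstream of it, Ptgs2, took another course and rose in both steps. Usp18 read 5.88, 5.75 and 5.7 in steady 300, 4.80, 4.51 and 4.59 after the step to 600, 7.44, 7.32 and 7.34 in steady 600 and 8.48, 7.90 and 8.05 after the step to 900. Usp18 removes the ubiquitin-like protein Isg15 from its targets and dampens interferon receptor signalling. Its interaction of 1.92 ± 0.21 (adjusted p = 1.26e-07) joined a change of -1.14 ± 0.15 that ended under the floor to one of 0.78 ± 0.15. The 12 h values differed from those at 24 h: Usp18 averaged 4.99 ± 0.37 (SD) at 12 h after the second step, below steady 600, and 8.14 ± 0.30 at 24 h. Iah1, an esterase, changed by -0.79 ± 0.11 and 1.02 ± 0.11, with an interaction of 1.81 ± 0.16.

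**Figure D2:**
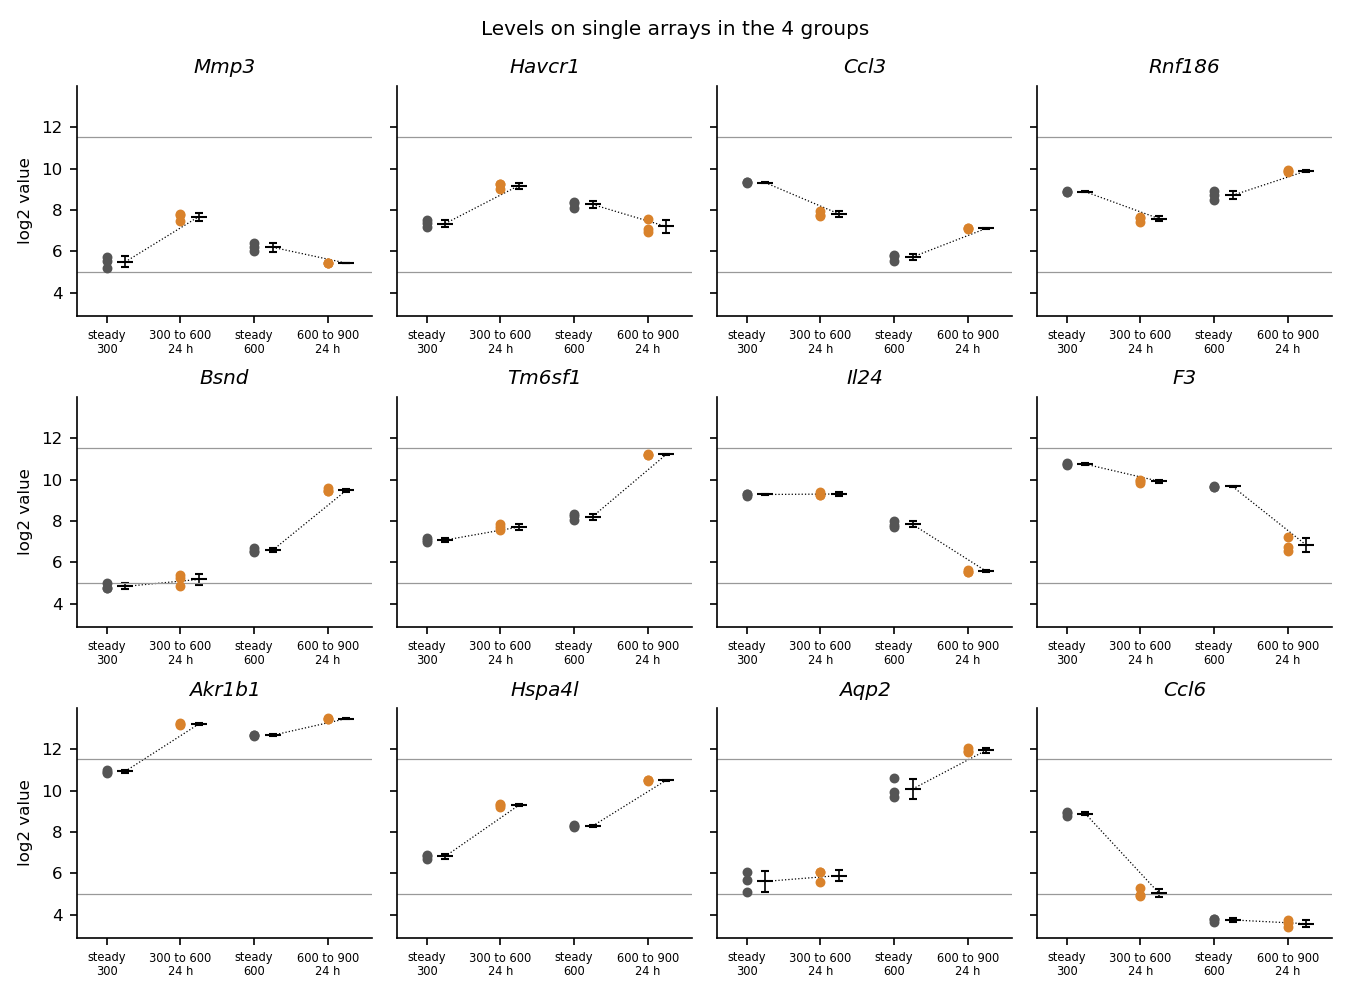
Log2 values of 12 named genes on each array of the 4 groups (grey points, steady cells; orange points, 24 h after a step), with black bars for mean ± SD of 3 arrays, dotted lines joining the start and end of each step, and grey horizontal lines at the floor (5.01) and ceiling (11.54). Mmp3 and Havcr1 go up and then down, Ccl3 and Rnf186 down and then up. Hspa4l climbs in both steps, and Akr1b1 is above the ceiling line in all groups but steady 300.

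Of the 1085 positive interactions, 328 belonged to genes that fell in the first step with no called change in the second, and 346 to genes that rose in the second with none in the first. Ccl6 read 8.79, 8.93 and 8.95 in steady 300, 5.28, 4.91 and 4.96 after the step to 600, 3.79, 3.79 and 3.66 in steady 600 and 3.73, 3.38 and 3.58 after the step to 900. Ccl6, a chemokine of myeloid cells, had the largest positive interaction of the genes named, 3.66 ± 0.20 (adjusted p = 2.62e-13). It fell by 3.84 in the first step, while both groups of the second step lay under the floor and differed by -0.18 ± 0.14 (adjusted p = 0.384), so a further fall could be understated there. Cd163 read 7.22, 7.66 and 7.62 in steady 300, 4.77, 5.12 and 4.93 after the step to 600, 4.62, 4.26 and 4.46 in steady 600 and 4.45, 4.42 and 4.30 after the step to 900. The macrophage scavenger receptor Cd163 had the same form, with an interaction of 2.50 ± 0.21 (adjusted p = 1.6e-09) and 3 of 4 groups under the floor. S100a8, a calcium-binding protein of neutrophils and monocytes, and Clec10a, a macrophage lectin, likewise fell in the first step (-2.25 ± 0.21 and -2.06 ± 0.15) with no called change in the second (0.15 ± 0.21 and 0.30 ± 0.15). Pi15, a peptidase inhibitor, fell in both, by 3.33 and by 0.94, and its interaction was 2.39 ± 0.25.

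Bsnd and Tm6sf1 were the genes named for a large rise in the second step. Bsnd read 4.74, 4.77 and 5.00 in steady 300, 5.40, 5.25 and 4.87 after the step to 600, 6.68, 6.56 and 6.50 in steady 600 and 9.42, 9.43 and 9.57 after the step to 900. Bsnd encodes barttin, the beta subunit of the ClC-K chloride channels of the distal nephron. It changed by 0.34 ± 0.13 (adjusted p = 0.0674) and by 2.89 ± 0.13, an interaction of 2.55 ± 0.19 (adjusted p = 9.17e-11). The first step overlapped between groups and began under the floor, whereas all arrays after the second step lay above all others. Tm6sf1 read 6.98, 7.07 and 7.18 in steady 300, 7.84, 7.58 and 7.70 after the step to 600, 8.34, 8.24 and 8.04 in steady 600 and 11.25, 11.19 and 11.20 after the step to 900. Tm6sf1, a multi-pass membrane protein, rose in both steps without overlap, by 0.63 ± 0.10 and 3.01 ± 0.10, and its interaction was 2.38 ± 0.14 (adjusted p = 2.35e-12). Both genes exceeded their steady 900 means of 8.56 ± 0.09 and 10.12 ± 0.10 (SD) at 24 h after the second step.

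Of the 792 negative interactions, 405 belonged to genes that fell in the second step with no called change in the first. Il24 read 9.23, 9.32 and 9.28 in steady 300, 9.26, 9.26 and 9.39 after the step to 600, 7.70, 7.99 and 7.81 in steady 600 and 5.55, 5.53 and 5.63 after the step to 900. Il24, a cytokine of the interleukin-10 family, changed by 0.02 ± 0.09 and -2.26 ± 0.09, an interaction of -2.29 ± 0.13 (adjusted p = 3.19e-13). Its first-step groups overlapped and its second-step groups were far apart. F3 read 10.69, 10.81 and 10.74 in steady 300, 9.83, 9.99 and 9.93 after the step to 600, 9.65, 9.65 and 9.69 in steady 600 and 6.54, 6.76 and 7.20 after the step to 900. F3, tissue factor, which starts the extrinsic pathway of coagulation, fell in both steps, by 0.83 and by 2.83, with an interaction of -2.00 ± 0.15 (adjusted p = 1.82e-10). Replicate 9 was the highest of the last group and still stood below all arrays of steady 600. Pxdn, a peroxidase that cross-links collagen IV, Sertad4, a SERTA-domain protein, and the antimicrobial peptide Defb1 followed the form of Il24, with interactions of -2.22 ± 0.35, -2.12 ± 0.15 and -2.02 ± 0.19. Defb1 was under the floor in every group except steady 600, at 6.13 to 6.38.

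Serpinb2 and Clca4l had a negative interaction through a larger rise in the first step. Serpinb2 read 3.92, 3.77 and 3.19 in steady 300, 7.34, 7.21 and 7.02 after the step to 600, 3.14, 3.68 and 3.58 in steady 600 and 4.75, 4.41 and 4.67 after the step to 900. Serpinb2, plasminogen activator inhibitor 2, rose by 3.56 ± 0.18 and by 1.14 ± 0.18, without overlap, and its interaction was -2.42 ± 0.25 (adjusted p = 7.35e-08). All groups but the one stepped to 600 were under the floor, so the size of either rise is uncertain. Clca4l read 6.86, 5.96 and 5.87 in steady 300, 8.32, 8.29 and 8.22 after the step to 600, 4.30, 3.92 and 3.85 in steady 600 and 3.92, 4.21 and 3.81 after the step to 900. Clca4l, named for its likeness to a chloride channel accessory protein and therefore open to signal from related genes, had an interaction of -2.09 ± 0.25 (adjusted p = 5.86e-07). Both of its groups of the second step were under the floor.

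Mmp13, Ptgs2, Slc4a11, Prss35 and Hspa4l were named for the largest rises in both steps. Mmp13 read 5.71, 5.87 and 5.93 in steady 300, 10.25, 10.14 and 10.80 after the step to 600, 8.42, 7.99 and 8.23 in steady 600 and 11.38, 11.19 and 11.26 after the step to 900. Mmp13, whose promoter stands above, rose by 4.56 ± 0.17 and 3.06 ± 0.17, and the smaller second rise gave an interaction of -1.50 ± 0.24 (adjusted p = 4.31e-05). Ptgs2 read 7.20, 7.22 and 7.21 in steady 300, 9.99, 10.09 and 10.004 after the step to 600, 6.88, 6.83 and 6.88 in steady 600 and 9.30, 9.48 and 9.39 after the step to 900. Ptgs2, cyclooxygenase-2, is the inducible enzyme of prostaglandin synthesis and is known for its role in medullary cells under hypertonic stress. It rose by 2.82 ± 0.09 and 2.53 ± 0.09 from starting levels that differed little, and the interaction of -0.29 ± 0.13 did not pass (adjusted p = 0.163), with a 95% interval of -0.56 to -0.02. Slc4a11 read 6.23, 6.13 and 6.19 in steady 300, 8.49, 8.51 and 8.49 after the step to 600, 9.53, 9.48 and 9.46 in steady 600 and 11.58, 11.52 and 11.52 after the step to 900. Slc4a11, a membrane transporter of the bicarbonate transporter family, rose by 2.31 ± 0.09 and 2.05 ± 0.09 from starts more than 3 log2 units apart. Prss35, an inactive member of the serine proteases, rose by 3.45 ± 0.11 and 2.26 ± 0.11, with an interaction of -1.19 ± 0.16 (adjusted p = 3.84e-06).

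Of the 5 genes named for falling most in both steps, 4 are known from myeloid cells. Clec4a2, an inhibitory lectin receptor, fell by 2.98 and by 2.63, the scavenger receptor Cd36 by 2.60 and by 2.78, and Cybb, the catalytic subunit of the phagocyte NADPH oxidase, by 2.30 and by 2.40. Their interactions were 0.35 ± 0.21, -0.18 ± 0.22 and -0.10 ± 0.20, and none passed (adjusted p = 0.316, 0.695 and 0.83). Cybb read 10.08, 10.24 and 10.12 in steady 300, 7.87, 7.93 and 7.75 after the step to 600, 8.44, 8.53 and 8.54 in steady 600 and 5.998, 6.05 and 6.27 after the step to 900. Each group stood apart from the other group of its step, and steady 600 was nearer to the cells stepped to 600 than to steady 300. Cxcr2, a chemokine receptor of neutrophils, fell by 2.26 and by 2.28. The changes of the nucleoside transporter Slc28a2 were -2.48 and -2.86. The 95% interval of the interaction of Cxcr2 ran from -0.43 to 0.39. Cxcr2 ended both steps under the floor, with means of 4.56 and 4.28. Clec4a2, Cd36 and Slc28a2 ended the second step under it, at 3.57, 4.69 and 4.66. Falls that ended there could be understated, and so could a difference between the steps.

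Most osmolyte and tonicity genes rose in each step, and 5, Nfat5, Akr1b1, Slc6a6, Slc38a2 and Sorbs2, had a negative interaction. Of 11 measured members of the tonicity and osmolyte list, 9 rose and 0 fell in the first step (median 0.51), 7 rose and 1 fell in the second (median 0.80), and the interaction was positive in 2 and negative in 5 (median -0.26, against 0.0015 over all genes). Without the arrays numbered 3 and 9 the negative ones numbered 3. Among all genes 9.4% rose and 13.0% fell in the first step, 11.2% and 14.7% in the second, and 7.48% had a positive and 5.46% a negative interaction. Akr1b1 read 10.91, 10.87 and 11.01 in steady 300, 13.23, 13.24 and 13.18 after the step to 600, 12.71, 12.68 and 12.62 in steady 600 and 13.48, 13.47 and 13.47 after the step to 900. Akr1b1, aldose reductase, makes sorbitol from glucose. It rose by 2.29 ± 0.06 and by 0.80 ± 0.06, an interaction of -1.48 ± 0.09 (adjusted p = 2.35e-12). All arrays except steady 300 lay above the ceiling, and the highest value of any gene was 13.62, so the second rise may be understated.

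Nfat5 read 8.70, 8.87 and 8.86 in steady 300, 9.68, 9.70 and 9.82 after the step to 600, 9.53, 9.55 and 9.65 in steady 600 and 9.85, 10.10 and 9.84 after the step to 900. Nfat5 itself rose by 0.92 ± 0.11 and 0.35 ± 0.11, with an interaction of -0.57 ± 0.15 (adjusted p = 0.0118, and 0.196 without the arrays numbered 3 and 9). Slc5a3 read 6.06, 5.76 and 5.79 in steady 300, 7.75, 7.68 and 7.64 after the step to 600, 8.33, 8.19 and 8.10 in steady 600 and 9.99, 10.09 and 9.86 after the step to 900. Slc5a3, the sodium-coupled myo-inositol transporter, rose by 1.82 ± 0.09 and 1.77 ± 0.09, and the interaction of -0.05 ± 0.13 had a 95% interval of -0.30 to 0.21. The taurine transporter Slc6a6 rose in the first step (0.45 ± 0.06) and was not called in the second (0.05 ± 0.06), with an interaction of -0.41 ± 0.09 (adjusted p = 0.00151). Slc38a2, a transporter of small neutral amino acids, had the same form, 0.51, 0.15 and -0.37 for first step, second step and interaction. Sorbs2, an adaptor protein of the actin cytoskeleton and the only member of the list that fell, did so in the second step (-1.83 ± 0.18), with an interaction of -1.74 ± 0.25.

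The 2 positive interactions of the list were those of Aqp2 and S100a4. S100a4, a small calcium-binding protein, rose by 0.34 ± 0.12 and 1.29 ± 0.12, an interaction of 0.95 ± 0.17 (adjusted p = 0.00021). The urea transporter Slc14a2 rose in both steps, by 1.35 ± 0.13 and 1.87 ± 0.13, and its interaction of 0.52 ± 0.19 missed the threshold (adjusted p = 0.0684). The call for Slc14a2 depended on the setting, with an adjusted p of 0.00982 without steady 600 replicate 1 and 0.666 at most.

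Hspa4l and Hsph1 of the Hsp110 family and Hspa2 of the Hsp70 family, chaperones that bind unfolded proteins, rose in both steps. Of 20 measured members, 5 rose and 2 fell in the first step, 7 rose and 1 fell in the second, and 3 interactions were positive and 0 negative. Over all genes 9.4% rose and 13.0% fell in the first step, 11.2% and 14.7% in the second, and 7.48% of interactions were positive. The 5 that rose in the first step became 3 without steady 300 replicate 3, 8 under quantile normalization or median centring, and 9 with array weights or with the 12 compared arrays alone. Hspa4l read 6.85, 6.91 and 6.70 in steady 300, 9.33, 9.23 and 9.32 after the step to 600, 8.29, 8.32 and 8.25 in steady 600 and 10.51, 10.51 and 10.47 after the step to 900. Hspa4l, an Hsp110 protein also known as an osmotic stress protein, rose by 2.47 ± 0.10 and 2.22 ± 0.10, and its interaction of -0.26 ± 0.14 did not pass (95% interval -0.54 to 0.03). Hsph1 read 9.19, 9.18 and 9.13 in steady 300, 10.29, 10.18 and 10.14 after the step to 600, 10.14, 10.04 and 9.96 in steady 600 and 11.63, 11.51 and 11.52 after the step to 900. Hsph1, the other inducible Hsp110 protein, rose by 1.04 ± 0.08 and 1.51 ± 0.08, an interaction of 0.47 ± 0.12 (adjusted p = 0.00748, and 0.116 without the arrays numbered 3 and 9). Hspa2, a Hsp70 protein, rose by 1.20 ± 0.09 and 1.29 ± 0.09. The small heat shock protein Hspb1 fell and then rose, with changes of -0.58 ± 0.10 and 0.50 ± 0.10, with an interaction of 1.09 ± 0.14 (adjusted p = 1.85e-06). Dnajb1, a partner of Hsp70, held the other positive interaction, 0.39 ± 0.12, which 7 of 22 alternatives lost.

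The promoter of Hsph1 is printed because it carries, within the same letters, the core TGGAAA and GAANNTTC, a pair of the inverted units from which the heat shock element bound by heat shock factors is built. It is RefSeq's for GRCr8, plus strand, chr12:10427118-10427367, with the matches in capitals.
Hsph1: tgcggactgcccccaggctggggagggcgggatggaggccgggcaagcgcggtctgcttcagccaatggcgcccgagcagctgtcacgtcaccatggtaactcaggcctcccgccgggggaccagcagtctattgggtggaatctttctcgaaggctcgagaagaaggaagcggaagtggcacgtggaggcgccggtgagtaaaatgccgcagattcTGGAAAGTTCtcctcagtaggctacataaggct
GAANNTTC, which shares letters with TGGAAA and reads the same on both strands, began 31 bases before the start, and TGGAAA 33 bases before. GAANNTTC was found in 8.34% of the 27457 promoters and in 6.59% of those of tested genes. This search was also added after the values had been seen.

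Several principal cell genes, with Aqp2 and Avpr2 in front, rose in the second step and were not called in the first. Of 22 measured members of the collecting duct list, 3 rose and 1 fell in the first step, 8 rose and 3 fell in the second, and 7 interactions were positive and 0 negative, with a median of 0.18. Without the arrays numbered 3 and 9, 4 were positive. All genes gave 9.4% up and 13.0% down in the first step, 11.2% and 14.7% in the second, and 7.48% positive and 5.46% negative interactions. Aqp2 read 6.07, 5.09 and 5.67 in steady 300, 6.05, 5.58 and 6.05 after the step to 600, 10.61, 9.92 and 9.68 in steady 600 and 12.07, 11.92 and 11.84 after the step to 900. Aqp2 changed by 0.29 ± 0.20 (adjusted p = 0.361) and rose by 1.87 ± 0.20, an interaction of 1.59 ± 0.28 (adjusted p = 0.000172). The groups of its first step overlapped, those of its second did not, and its end level was above the ceiling. Avpr2 read 5.23, 5.38 and 5.47 in steady 300, 5.68, 5.16 and 5.77 after the step to 600, 8.43, 8.31 and 8.24 in steady 600 and 10.03, 9.89 and 9.94 after the step to 900. Avpr2, the receptor through which vasopressin raises cAMP, had the same form, 0.18 ± 0.12 and 1.62 ± 0.12, with an interaction of 1.45 ± 0.17 (adjusted p = 3.55e-07).

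The basolateral water channel Aqp3, the transcription factors Elf5, Gata3 and Gata2, and Adcy6, an adenylyl cyclase that makes cAMP, held the remaining positive interactions, 0.87, 0.75, 0.62, 0.88 and 0.42. Of these, Gata2 fell and then rose (-0.39 ± 0.11 and 0.49 ± 0.11) and Adcy6 rose in both (0.50 ± 0.07 and 0.92 ± 0.07). The subunits of the epithelial sodium channel, Scnn1a, Scnn1b and Scnn1g, had interactions of 0.26, -0.36 and 0.09, none called, and each was under the floor in at least 1 group. Aqp4 and Tfcp2l1, a transcription factor of the duct, fell in the second step (-0.58 and -0.65). The starting levels of these genes were far apart. Elf5 averaged 5.19 in steady 300 and 9.24 in steady 600, and Aqp3 5.79 and 9.30.

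Among ion transport and cell volume genes, those for Fxyd2, Slc12a2 and Stk39 rose in both steps. Of 20 measured, 7 rose and 2 fell in the first step, 8 rose and 6 fell in the second, and 2 interactions were positive and 3 negative, against 7.48% and 5.46% over all genes (9.4% and 13.0% for the first step, 11.2% and 14.7% for the second). The 7 became 11 under quantile normalization, median centring or array weights, and the 6 became 3 without steady 600 replicate 3. Fxyd2, the gamma subunit of the sodium pump, rose by 1.89 ± 0.08 and 1.59 ± 0.08, and Slc12a2, the sodium, potassium and chloride cotransporter that restores volume after shrinkage, by 0.70 ± 0.07 and 0.73 ± 0.07. The interaction of Slc12a2 was 0.04 ± 0.10, with a 95% interval of -0.17 to 0.25. Lrrc8c, a subunit of the volume-regulated anion channel, changed by 0.01 ± 0.11 and -0.75 ± 0.11, an interaction of -0.76 ± 0.15 (adjusted p = 0.000853). Stk39, the kinase SPAK that activates Slc12a2, rose by 0.96 ± 0.08 and by 0.56 ± 0.08, with a negative interaction of -0.41 ± 0.12. Wnk4, a kinase upstream of it, changed by 0.20 ± 0.09 and 0.74 ± 0.09, with a positive one of 0.54 ± 0.12.

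Amino acid transporters split. Of 16 measured, 6 rose and 5 fell in the first step, 5 rose and 1 fell in the second, and 4 interactions were positive and 4 negative. The 4 negative ones became 2 without replicate 1 of the cells stepped to 600, replicate 1 of the cells stepped to 900, steady 300 replicate 3 or steady 600 replicate 2. The 5 that fell became 3 without replicate 3 of either first-step group, and the 5 that rose became 3 without steady 600 replicate 2 and 8 under median centring, cyclic loess, array weights or the 12 arrays alone. Shares over all genes were 9.4% up and 13.0% down in the first step, 11.2% and 14.7% in the second, and 7.48% positive and 5.46% negative interactions. Slc38a4 read 9.53, 9.50 and 9.43 in steady 300, 11.26, 11.18 and 11.21 after the step to 600, 9.38, 9.37 and 9.33 in steady 600 and 9.81, 9.82 and 9.79 after the step to 900. Slc38a4, a carrier of neutral and cationic amino acids, rose by 1.73 ± 0.09 and 0.44 ± 0.09, an interaction of -1.29 ± 0.13 (adjusted p = 5.66e-08). Slc7a8 and Slc7a5, light chains of the exchangers for large neutral amino acids, fell in the first step (-1.03 ± 0.13 and -0.69 ± 0.11) and were not called in the second, with interactions of 1.20 ± 0.18 and 0.80 ± 0.16. Slc1a4, which carries alanine, serine and cysteine, fell and then rose (-0.56 ± 0.08 and 0.26 ± 0.08). Slc7a11, the cystine and glutamate exchanger, rose alike in both, 0.79 ± 0.12 and 0.84 ± 0.12.

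**Figure D3:**
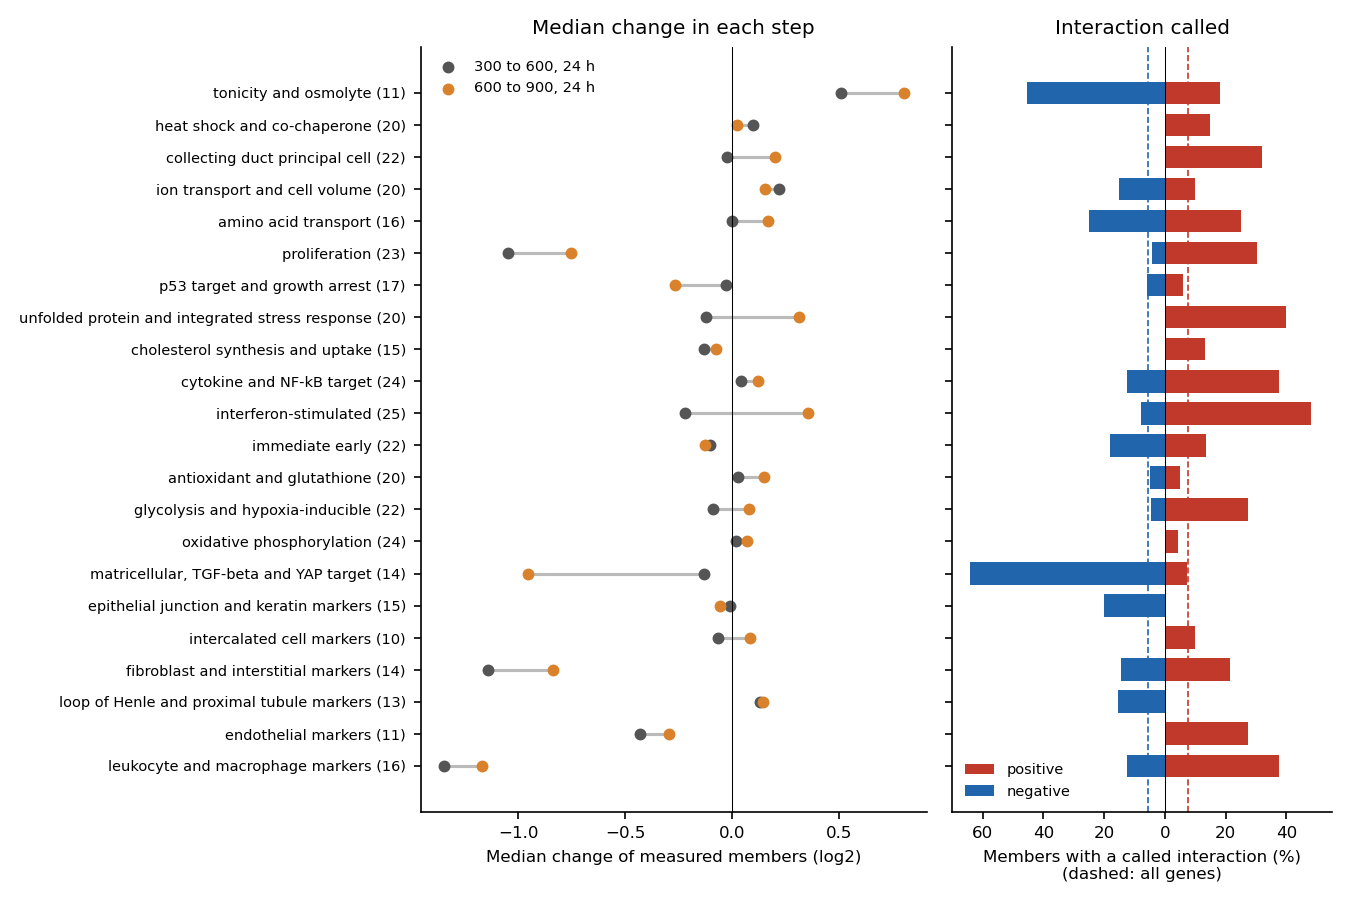
Left, the median log2 change of the measured members of 22 gene lists (number in brackets) in the first step (grey) and the second (orange); right, the percentage of members with a called positive (red) or negative (blue) interaction, with dashed lines for all genes (7.48% and 5.46%). The unfolded protein and interferon lists have medians below 0 in the first step and above 0 in the second, and 9 of 14 matricellular genes have a negative interaction.

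Several genes of the unfolded protein and integrated stress responses fell in the first step and rose in the second. These programmes act when unfolded protein builds up in the endoplasmic reticulum or when amino acids run short, through the transcription factors Xbp1 and Atf4. Of 20 measured members, 2 rose and 8 fell in the first step (median -0.12), 11 rose and 1 fell in the second (median 0.31), and 8 interactions were positive and 0 negative (median 0.34), with 6 genes that fell and then rose. The first-step count of 8 became 5 without replicate 3 of the cells stepped to 600, and array weights gave 13 positive interactions. The signs of the medians were kept under quantile normalization, median centring and cyclic loess. Of all genes 9.4% rose and 13.0% fell in the first step, 11.2% and 14.7% in the second, with 7.48% positive and 5.46% negative interactions. A fall followed by a rise was called in 0.758% of all genes. Trib3 read 6.33, 6.30 and 6.39 in steady 300, 6.004, 5.95 and 5.86 after the step to 600, 5.81, 5.43 and 5.55 in steady 600 and 6.51, 6.52 and 6.43 after the step to 900. Trib3, a pseudokinase target of Atf4, had the largest interaction of the list, 1.30 ± 0.18 (adjusted p = 6.01e-06). Its arrays overlapped in neither step.

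Sdf2l1 and Herpud1, which serve protein folding and disposal in the endoplasmic reticulum, changed by -0.45 ± 0.12 and 0.75 ± 0.12 and by -0.35 ± 0.09 and 0.51 ± 0.09, with interactions of 1.20 ± 0.17 and 0.86 ± 0.12 (adjusted p = 6.13e-06 and 8.44e-06). Asns read 9.15, 9.25 and 9.24 in steady 300, 8.69, 8.68 and 8.64 after the step to 600, 9.11, 9.12 and 9.15 in steady 600 and 9.50, 9.62 and 9.57 after the step to 900. Asns, asparagine synthetase, an Atf4 target, had an interaction of 0.98 ± 0.14 (adjusted p = 1.23e-05), and its arrays separated in both steps. Xbp1 and Atf4 fell and then rose by smaller amounts, with interactions of 0.77 ± 0.12 and 0.65 ± 0.10. Hspa5, the central chaperone of the compartment, was not called in the first step (-0.04 ± 0.08) and rose in the second (0.34 ± 0.08), and Creld2 held the eighth positive interaction, 0.69 ± 0.11. Ddit3 and Ppp1r15a, which act late in the response, rose in both steps, by 0.45 and 0.82 and by 0.26 and 0.46, and their interactions were not called. Atf3 fell in both, by 0.33 and by 0.28.

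Interferon-stimulated genes had the highest count of positive interactions of the lists, 12 of 25 measured, with 2 negative and a median of 0.57. In the first step 2 rose and 8 fell (median -0.22), in the second 14 rose and 3 fell (median 0.36), and 5 fell and then rose. The 8 became 4 without steady 300 replicate 2, 5 without steady 300 replicate 1 or without replicate 3 of the cells stepped to 600, 4 under median centring, 5 under quantile normalization and 13 with array weights. The median interaction became 0.86 without steady 300 replicate 3. For comparison, 9.4% of all genes rose and 13.0% fell in the first step and 11.2% and 14.7% in the second. Positive interactions made 7.48%, negative ones 5.46% and falls followed by a rise 0.758% of all genes. Oasl read 6.53, 6.47 and 6.44 in steady 300, 6.04, 6.20 and 5.99 after the step to 600, 7.77, 7.34 and 7.71 in steady 600 and 8.85, 8.75 and 8.76 after the step to 900. Oasl, an antiviral protein of the oligoadenylate synthetase family, changed by -0.40 ± 0.14 and 1.18 ± 0.14, an interaction of 1.58 ± 0.20 (adjusted p = 1.54e-06). Its steady 600 arrays were already above both groups of the first step. Irf7 read 5.84, 5.54 and 5.79 in steady 300, 5.49, 5.59 and 5.83 after the step to 600, 8.16, 8.11 and 8.10 in steady 600 and 9.32, 9.05 and 9.23 after the step to 900. Irf7, the transcription factor that amplifies interferon production, was not called in the first step (-0.09 ± 0.13) and rose by 1.08 ± 0.13 in the second, with an interaction of 1.17 ± 0.19 (adjusted p = 4.8e-05).

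Irf9 and Stat2, transcription factors that act downstream of the interferon receptor, had interactions of 0.85 ± 0.12 and 0.48 ± 0.13, and the antiviral genes Mx2, Rsad2, Ifit1, Ifit2 and Dhx58 of 1.43, 1.31, 1.28, 1.37 and 0.92. Oas1a and Oas1b, with 1.31 and 1.18, are close copies whose signals may not be separate. Usp18, described above, was the largest. Not all members moved this way. Mx1 rose in both steps, by 0.92 ± 0.24 and 1.49 ± 0.24 (adjusted p of the interaction = 0.315), and Irf1 and Gbp2, which respond to interferon gamma, fell in the second step (-0.63 and -0.59), with interactions of -0.81 ± 0.14 and -0.48 ± 0.11. Isg15 was not called in either step (-0.25 and 0.04).

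**Figure D4:**
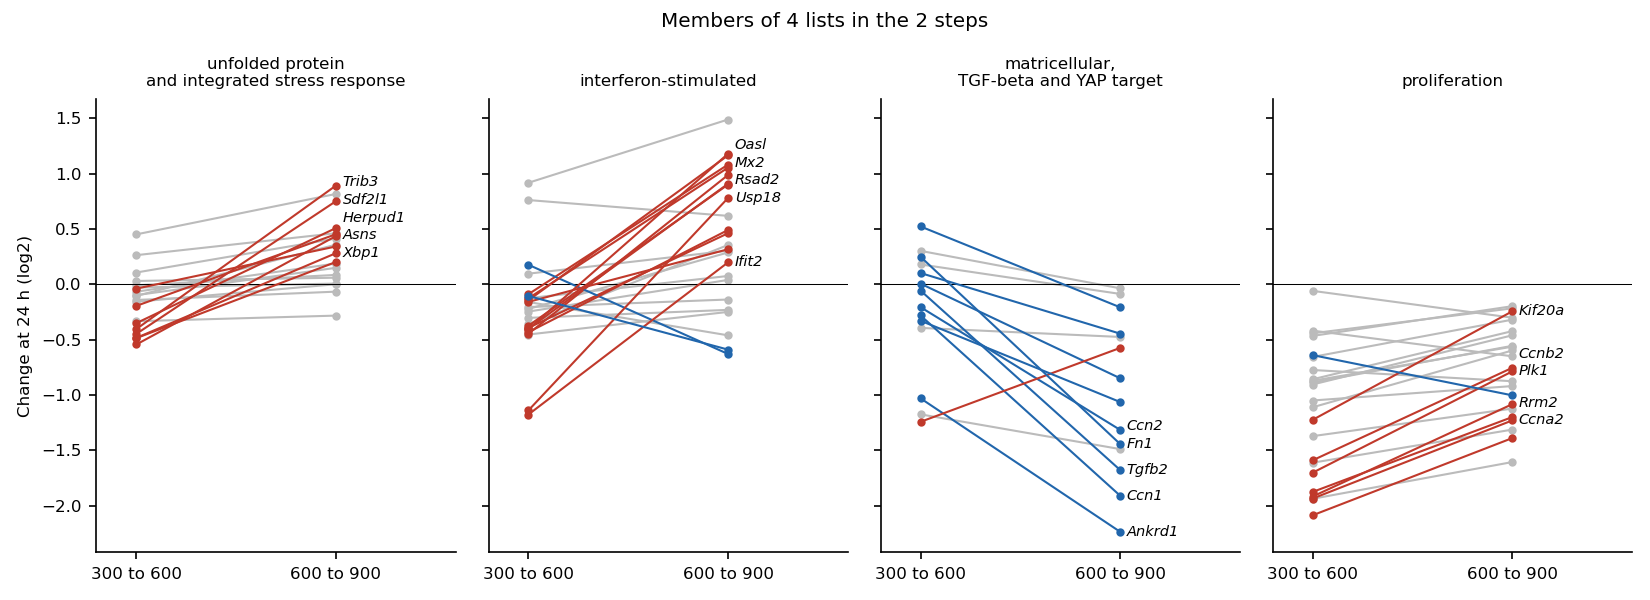
Each line joins the log2 change of 1 gene at 24 h after the step from 300 to 600 (left) and from 600 to 900 mosmol/kg (right) in 4 lists; red lines have a called positive interaction, blue lines a called negative one and grey lines none. Red lines cross 0 in the unfolded protein list (8 of 20 members) and interferon list (12 of 25), blue lines descend in the matricellular list (9 of 14), and all lines of the proliferation list stay below 0.

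Cytokine and NF-kB target genes gave 9 positive and 3 negative interactions among 24 measured (median 0.29). In the first step 7 rose and 8 fell, in the second 11 rose and 7 fell, and 7 rose in both. The 9 became 5 without the arrays numbered 3 and 9. Among all genes 7.48% of interactions were positive and 5.46% negative. The first step had 9.4% up and 13.0% down and the second 11.2% and 14.7%, and 4.16% of all genes rose in both. The chemokines Ccl20 and Cxcl2, which attract lymphocytes and neutrophils, rose in both steps, Ccl20 by 1.29 ± 0.16 and 2.16 ± 0.16 and Cxcl2 by 0.58 ± 0.17 and 1.43 ± 0.17, with interactions of 0.87 ± 0.22 and 0.85 ± 0.25. Il1b read 9.42, 9.25 and 9.17 in steady 300, 7.93, 7.76 and 7.74 after the step to 600, 5.08, 4.72 and 5.04 in steady 600 and 5.37, 4.95 and 5.06 after the step to 900. Il1b, a main cytokine of inflammation, fell by 1.47 in the first step and stood near the floor in both groups of the second (0.18 ± 0.15), so its interaction of 1.65 ± 0.21 rests on the first. Il6 fell in both steps, by 2.13 and by 1.17, and Icam1, an adhesion molecule for leukocytes, fell and then rose (-0.56 ± 0.11 and 0.32 ± 0.11).

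Negative interactions of the same list included those of Csf1 and Lif. Csf1 read 11.94, 11.99 and 12.00 in steady 300, 12.20, 12.21 and 12.27 after the step to 600, 10.95, 11.04 and 10.98 in steady 600 and 10.19, 10.23 and 10.21 after the step to 900. Csf1, the growth factor of macrophages, was not called in the first step (0.25 ± 0.11) and fell in the second (-0.78 ± 0.11), an interaction of -1.03 ± 0.15 (adjusted p = 1.76e-05). Both groups of its first step lay above the ceiling, so a rise there could be understated. Lif, a cytokine of the interleukin-6 family, fell in both, by 0.62 and by 1.55, with an interaction of -0.93 ± 0.11 (adjusted p = 9.47e-07).

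Immediate early genes, the first to answer a signal, gave 3 positive and 4 negative interactions among 22 measured (median -0.07), against 7.48% and 5.46% of all genes. Negative ones were those of Myc, Junb, Jun and Dusp1. Myc changed by -0.05 ± 0.09 and -0.91 ± 0.09, Junb by -0.29 ± 0.09 and -0.93 ± 0.09 and Jun by -0.11 ± 0.08 and -0.65 ± 0.08. Their interactions were -0.87 ± 0.13, -0.64 ± 0.12 and -0.54 ± 0.12 (adjusted p = 1.06e-05, 0.000469 and 0.0013). Dusp1, a phosphatase of MAP kinases, rose in the first step only by its test (0.51 ± 0.09, then -0.09 ± 0.09), with an interaction of -0.60 ± 0.13. Nr4a1, an orphan nuclear receptor, fell in the first (-0.64 ± 0.16, then 0.25 ± 0.16), with one of 0.88 ± 0.22. In the first step 4 of the list rose and 5 fell (9.4% and 13.0% of all genes), and in the second 3 rose and 6 fell (11.2% and 14.7%). The first 5 became 3 without replicate 3 of either first-step group or under median centring, and 8 with array weights or the 12 arrays alone.

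Matricellular genes and targets of TGF-beta and YAP fell mainly in the second step. YAP is a coactivator that answers to cell shape and tension, and its best known targets are Ccn1, Ccn2 and Ankrd1. Of 14 measured, 2 rose and 7 fell in the first step (median -0.13), 0 rose and 12 fell in the second (median -0.95), and 1 interaction was positive and 9 negative (median -0.73). The 7 became 4 when replicate 1 or 3 of either first-step group was left out and under median centring. All genes gave 9.4% up and 13.0% down in the first step, 11.2% and 14.7% in the second, and 7.48% positive and 5.46% negative interactions. Ccn1 read 11.96, 11.88 and 11.93 in steady 300, 11.70, 11.62 and 11.60 after the step to 600, 11.03, 11.12 and 11.21 in steady 600 and 9.10, 9.19 and 9.35 after the step to 900. Ccn1 fell by 0.28 and by 1.91, an interaction of -1.63 ± 0.11 (adjusted p = 1.04e-11). Its first-step arrays were above the ceiling and separate by a narrow margin, and its second-step groups were far apart. Fn1 read 12.53, 12.60 and 12.57 in steady 300, 12.81, 12.84 and 12.80 after the step to 600, 11.80, 12.05 and 12.13 in steady 600 and 10.39, 10.74 and 10.53 after the step to 900. Fn1, fibronectin, changed by 0.25 ± 0.10 and -1.44 ± 0.10, an interaction of -1.69 ± 0.14 (adjusted p = 1.13e-09).

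Ccn2 fell by 0.21 and by 1.31, Ankrd1 by 1.03 and by 2.23, and Axl, a receptor kinase, by 0.33 and by 1.06, with interactions of -1.11 ± 0.10, -1.21 ± 0.15 and -0.73 ± 0.14. Tgfb2 read 11.37, 11.45 and 11.43 in steady 300, 11.35, 11.34 and 11.39 after the step to 600, 10.20, 10.41 and 10.39 in steady 600 and 8.51, 8.75 and 8.72 after the step to 900. Tgfb2, a TGF-beta ligand, was not called in the first step (-0.06 ± 0.14) and fell by 1.68 in the second, while Tgfb1 fell alike in both, by 0.39 and by 0.47. Thbs1, an activator of latent TGF-beta, followed Tgfb2 (0.01, -0.85 and -0.85 for first step, second step and interaction). The osteopontin gene Spp1 rose and then fell, 0.52 ± 0.06 and -0.21 ± 0.06. Tgfbi was the 1 member with a positive interaction, falling by 1.24 and by 0.57. Ceiling values touched 6 of the 14, Ccn1, Ankrd1, Thbs1, Tagln, Spp1 and Fn1, each at the start of at least 1 step.

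Proliferation genes fell in both steps. Of 23 measured, 22 fell in the first step (median -1.05), 20 fell in the second (median -0.75) and 0 rose in either. Of the interactions 7 were positive and 1 negative (median 0.33). Shares over all genes were 13.0% down and 9.4% up in the first step, 14.7% and 11.2% in the second, and 7.48% positive and 5.46% negative interactions. Kif20a read 6.82, 6.87 and 6.76 in steady 300, 5.61, 5.64 and 5.53 after the step to 600, 6.51, 6.43 and 6.29 in steady 600 and 6.11, 6.17 and 6.22 after the step to 900. Kif20a, a kinesin of cytokinesis, fell by 1.22 in the first step and was not called in the second (-0.24 ± 0.11), an interaction of 0.98 ± 0.16 (adjusted p = 3.86e-05). The cyclins Ccnb2, Ccnb1 and Ccna2 fell by 1.59, 1.87 and 1.93 and then by 0.75, 1.20 and 1.23, with interactions of 0.84, 0.68 and 0.71. Plk1 read 7.69, 7.83 and 7.87 in steady 300, 6.25, 6.01 and 6.02 after the step to 600, 7.12, 7.06 and 6.93 in steady 600 and 6.28, 5.93 and 6.55 after the step to 900. Plk1, a mitotic kinase, had an interaction of 0.92 ± 0.19 (adjusted p = 0.00118). As in Ccnb1, Top2a and Ccna2, replicate 9 of the cells stepped to 900 was the highest of its group. The mean over the list was 6.34 there and 6.02 on both other arrays, against 5.87 to 5.94 in cells stepped to 600, 7.05 in steady 300 and 6.83 to 6.97 in steady 600. Without replicate 9 the list had 7 positive interactions and 1 negative one, with a median of 0.29, and without the arrays numbered 3 and 9 it had 3 positive ones. Thymidylate synthase, Tyms, had the negative interaction (-0.36 ± 0.12).

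Targets of p53 and growth arrest genes had 1 positive and 1 negative interaction of 17 measured, near the share of 12.9% over all genes. In the first step 1 rose and 3 fell (9.4% and 13.0% of all genes), and in the second 3 rose and 6 fell (11.2% and 14.7%). Gadd45a, a stress sensor, had an interaction of 0.49 ± 0.12 (adjusted p = 0.00412) and Plk2, a kinase, of -0.49 ± 0.13 (adjusted p = 0.00877), and neither passed without the arrays numbered 3 and 9. Ddit4, an inhibitor of mTOR signalling, rose in the second step (0.62 ± 0.16), and its interaction of 0.64 ± 0.22 just missed (adjusted p = 0.0514). Cdkn1a, the cell cycle inhibitor p21, changed by 0.02 ± 0.09 and -0.33 ± 0.09.

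Among metabolic lists, glycolysis and hypoxia-inducible genes had 6 positive and 1 negative interactions of 22 measured (median 0.13), with 4 that rose and 8 that fell in the first step and 6 and 5 in the second. Of all genes 7.48% had a positive and 5.46% a negative interaction, with 9.4% up and 13.0% down and then 11.2% and 14.7%. Vegfa read 8.44, 8.36 and 8.33 in steady 300, 8.28, 8.28 and 8.25 after the step to 600, 6.95, 7.06 and 6.99 in steady 600 and 7.92, 7.96 and 7.996 after the step to 900. Vegfa, the vascular growth factor, was not called in the first step (-0.11 ± 0.10) and rose in the second (0.96 ± 0.10), an interaction of 1.06 ± 0.14 (adjusted p = 4.17e-06). Steady 600 stood well below every other group. Pfkfb3, which makes the activator of phosphofructokinase, fell and then rose (-0.45 ± 0.10 and 0.69 ± 0.10), an interaction of 1.15 ± 0.14 (adjusted p = 5.47e-07). Adrenomedullin, Adm, rose and then fell (0.32 ± 0.10 and -0.61 ± 0.10), an interaction of -0.92 ± 0.14 (adjusted p = 2.13e-05). The lactate carrier Slc16a3 and the glucose carrier Slc2a1 had interactions of 0.79 ± 0.16 and 0.33 ± 0.09.

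Called interactions in the remaining metabolic lists are to be read against 12.9% of all genes, and those of the antioxidant and cholesterol lists lay near that share. Oxidative phosphorylation had 1 of 24 (Ndufb8, 0.61 ± 0.17). Antioxidant and glutathione genes had 2 of 20, positive in Sod2, the mitochondrial superoxide dismutase (0.78 ± 0.09), and negative in Gclm, a subunit of the enzyme that starts glutathione synthesis (-0.33 ± 0.11, lost in 11 of 22 alternatives). Nqo1 and Gsr, enzymes that keep quinones and glutathione reduced, rose in both steps, Nqo1 by 0.90 and 0.81 and Gsr by 0.66 and 0.57. Cholesterol genes had 2 of 15, both positive: Dhcr7, the last enzyme of the route (0.52 ± 0.10), and Fdft1, squalene synthase (0.42 ± 0.12, lost in 6 of 22 alternatives). In the cholesterol list 5 fell in the first step, and 1 rose and 2 fell in the second, with the 5 reduced to 1 under median centring. Of all genes 13.0% fell in the first step, and 11.2% rose and 14.7% fell in the second.

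Markers of other cells that a primary culture can hold moved in both steps. Of 16 leukocyte and macrophage markers, 12 fell in the first step and 11 in the second and 0 rose, with 6 positive and 2 negative interactions (median 0.22). Of all genes 13.0% fell and 9.4% rose in the first step, 14.7% and 11.2% in the second, with 7.48% positive and 5.46% negative interactions. The mean level of the 16 was 8.11 to 8.21 over the arrays of steady 300, 6.76 to 6.88 after the step to 600, 6.57 to 6.63 in steady 600 and 5.53 to 5.64 after the step to 900. Their mean level was thus lower after each step and lay near the floor at the end, with 7 members under the floor in at least 1 group. Mrc1 read 9.50, 9.64 and 9.63 in steady 300, 6.91, 6.54 and 6.53 after the step to 600, 6.28, 6.38 and 6.58 in steady 600 and 4.39, 4.77 and 4.60 after the step to 900. Mrc1, the mannose receptor of macrophages, fell by 2.93 and by 1.83, with an interaction of 1.10 ± 0.18. Ptprc read 7.13, 7.33 and 7.15 in steady 300, 6.95, 7.10 and 6.98 after the step to 600, 6.86, 7.05 and 6.86 in steady 600 and 5.04, 5.54 and 5.57 after the step to 900. Ptprc, the pan-leukocyte antigen CD45, was not called in the first step (-0.19 ± 0.14) and fell in the second (-1.54 ± 0.14), an interaction of -1.35 ± 0.20 (adjusted p = 1.61e-05). The T cell gene Cd3e was under the floor in all 4 groups, with no called change. Of the genes with myeloid roles named above, Clec4a2, Cybb and Cxcr2 fell in both steps, and Ccl6, Cd163, Clec10a and S100a8 fell in the first step alone. Ccl3 fell in the first and rose in the second, and Clec4d rose in the first and fell in the second. The part of such cells in these changes was not tested.

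Fibroblast and interstitial markers fell in both steps as well: 10 of 14 in the first, 12 in the second, 0 rose, and 3 interactions were positive and 2 negative. Their mean level was 8.99 to 9.00 in steady 300, 8.04 to 8.12 after the step to 600, 8.30 to 8.45 in steady 600 and 7.52 to 7.63 after the step to 900. Shares over all genes were 13.0% down and 9.4% up in the first step, 14.7% and 11.2% in the second, and 7.48% positive and 5.46% negative interactions. Col11a1 read 11.55, 11.62 and 11.58 in steady 300, 11.75, 11.70 and 11.82 after the step to 600, 10.04, 10.46 and 10.47 in steady 600 and 8.89, 8.97 and 8.97 after the step to 900. Col11a1, a fibrillar collagen, was not called in the first step (0.17 ± 0.10) and fell by 1.38 in the second, with an interaction of -1.55 ± 0.14 (adjusted p = 4.45e-09). Postn, periostin, fell by 2.42 and by 0.88, with one of 1.54 ± 0.18. Col1a1 fell by 1.40 and by 1.12 and its interaction was not called. These markers moved beside the matricellular genes, and their part in that result was not tested.

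Of 11 endothelial markers 7 fell and 1 rose in the first step and 6 fell and 2 rose in the second, with a mean level of 8.06 to 8.09 in steady 300, 7.54 to 7.67 after the step to 600, 8.32 to 8.44 in steady 600 and 8.15 to 8.27 after the step to 900. The 3 positive interactions were in the angiopoietin receptor Tek (0.69 ± 0.13), its relative Tie1 (0.95 ± 0.14) and Esam, a junction molecule (0.58 ± 0.11). For this list and the marker lists that follow, 7.48% of all genes had a positive and 5.46% a negative interaction. In the first step 13.0% of all genes fell and 9.4% rose, and in the second 14.7% and 11.2%. Epithelial junction and keratin markers were high in all groups, with a mean of 10.04 to 10.07, 10.13 to 10.18, 10.42 to 10.45 and 10.41 to 10.45 in the order steady 300, stepped to 600, steady 600 and stepped to 900. Of these 15, 0 had a positive and 3 a negative interaction: the kidney cadherin Cdh16 (-0.80 ± 0.10) and the paired keratins Krt8 (-0.31 ± 0.09) and Krt18 (-0.31 ± 0.10). Intercalated cell markers were under the floor in all 4 groups for 7 of 10 members, and the ammonia transporter Rhbg alone was called (1.19 ± 0.19). Loop and proximal tubule markers had 2 negative interactions of 13, Slc3a1 (-1.03 ± 0.15) and the urea transporter Slc14a1 (-0.70 ± 0.19). This was near the share of 12.9% of all genes with a called interaction, and 7 of the 13 were under the floor in at least 1 group.

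Interactions were read against the ends of the scale. Of 9546 genes with no group at the floor or ceiling, 1555 were called (16.3%), 873 positive and 682 negative. Of 4744 genes with at least 1 group under the floor, 260 were called (5.48%), 192 positive and 68 negative, and of 216 with at least 1 group above the ceiling, 62 were called (28.7%), 20 positive and 42 negative. Genes that cross an end carried most of these calls. Among the 4000 genes under the floor in all 4 groups 69 were called (1.73%), and among the 744 under it in 1 to 3 groups 191 (25.7%). Among the 99 genes above the ceiling in all 4 groups 11 were called (11.1%), and among the 117 above it in 1 to 3 groups 51 (43.6%). Over 3 equal classes of mean level, 3.87% of the dimmest genes were called, 17.1% of the middle class and 17.8% of the brightest.

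Genes of which 1 step began at an end of the scale were counted apart. Each count takes genes by a called change in the other step. That change is itself part of the interaction, so the sign was partly set by the choice. Of the 196 genes that fell in the first step and whose steady 600 level was already under the floor, where a second fall could be understated, 81 had a positive interaction and 0 a negative one. Ccl6, Cd163, S100a8 and Pi15 are among them. For all first-step falls, at any level, a positive interaction was held by 328 of the 781 genes with no second call. It was also held by 190 of the 988 that fell again (81 had a negative one) and by all 110 that rose. The part of the floor in these signs was not tested. Of the 84 genes that fell in the second step and whose steady 300 level was under the floor, 30 had a negative interaction and 1 a positive one, Defb1 and Slc3a1 among them. At the ceiling the numbers were small. Of 16 genes that rose in the first step and started the second above the ceiling, Akr1b1 among them, 6 had a negative and 1 a positive interaction, and of 14 that rose in the second and started the first above the ceiling 5 had a positive and 0 a negative one. Dlgap5l2 had the largest called interaction of the genes with a ceiling value. Dlgap5l2 read 11.73, 11.73 and 11.71 in steady 300, 11.88, 11.68 and 11.83 after the step to 600, 5.37, 5.57 and 5.60 in steady 600 and 7.28, 7.19 and 7.43 after the step to 900. It was above the ceiling in both groups of the first step and changed by 1.79 ± 0.16 in the second, so its interaction of 1.72 ± 0.23 sets a change read at the ceiling against one read far below it.

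**Figure D5:**
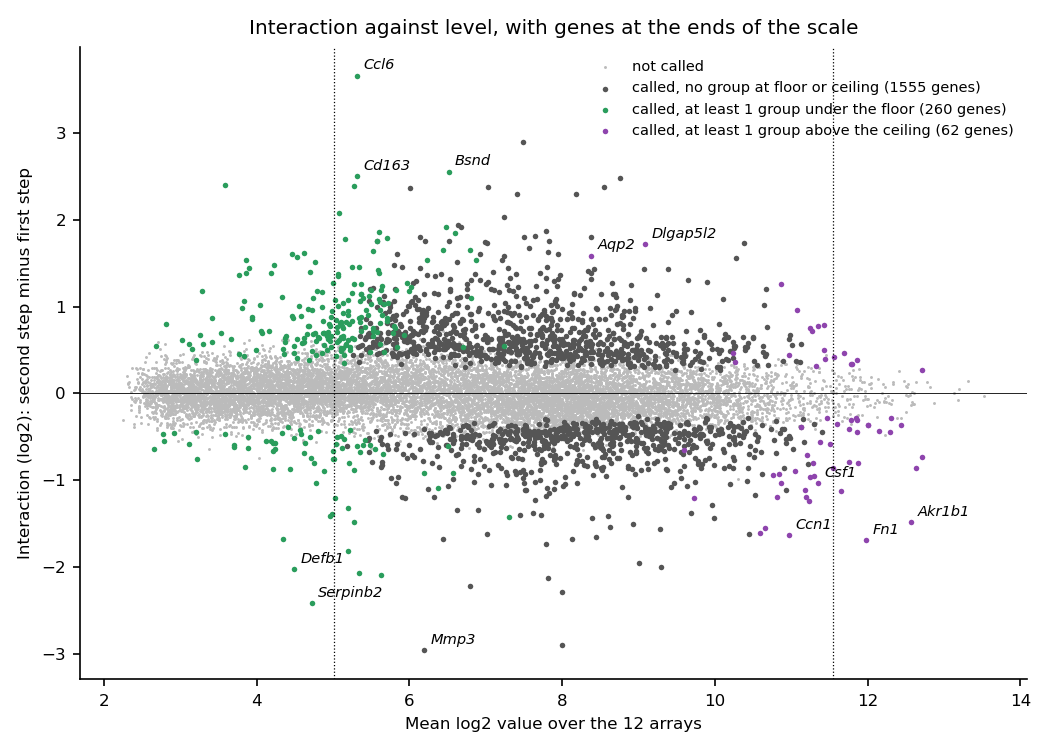
Interaction (log2) against the mean log2 value over the 12 arrays, 1 point per gene, with dotted vertical lines at the floor (5.01) and ceiling (11.54); dark grey points are called with no group at either end (1555), green points are called with at least 1 group under the floor (260) and purple points with at least 1 above the ceiling (62). Green points are mostly positive (192 against 68) and purple points mostly negative (42 against 20).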

How the data were processed

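Total RNA of primary rat inner medullary collecting duct cells was labelled with a whole-transcript kit and hybridised to Affymetrix arrays, 1 array per sample, per the labels' protocols. The deposited values are log2 expression made by the authors with RMA (robust multi-array average), per the submitters' processing notes. RMA corrects background, equalises the arrays and combines the probes of a probe set. Its version and settings are not stated in the labels or notes used here. Array medians lay between 5.63 and 5.76. With no read depth on arrays, their number (3 per group) limits the precision: the median SE was 0.107 for a step and 0.151 for the interaction, and the smallest called interaction was 0.26.

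Of 29170 probe sets, 15310 had 1 gene symbol in the platform annotation, 323 had several and 13537 had none listed. Of the 15310, 15279 were matched to a GRCr8 gene table. The probe set with the highest mean represented each of 14506 genes.

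Groups came from the titles. The limma package (3.58.1, R 4.3.3) was run with lmFit, 1 mean per group over 30 arrays, and eBayes, and p-values were adjusted by Benjamini-Hochberg over all genes. On simulated data for this interaction (14506 genes, 200 changed), the fit recovered 24% of changes of 0.5, 92% of 1, 96% of -1 and 100% of 2. Of its calls, 6.59% were false. The simulated noise was independent between genes, and more genes were called in the deposited data (1877) than were changed in the simulation. These rates therefore need not hold for the deposited data.

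The genes and the 22 lists (16 functional, 6 of markers) were chosen with earlier results of these data known. Named genes were the 10 largest interactions in each direction, the 5 of each kind with the largest smaller change among genes moving oppositely or alike in the 2 steps, the 3 members of each functional list and 2 of each marker list with the smallest adjusted interaction p, the 3 largest with a floor or ceiling value, and Nfat5, Akr1b1, Slc5a3, Slc6a6, Slc14a2 and Aqp2. These came to 95 genes, without symbols starting with LOC, RGD or MGC. The 10 largest in each direction were taken from called genes, leaving out genes whose arrays overlapped in both steps. For genes named by that rule, separate arrays in a step were therefore partly set by the choice. Other list members were named to complete their list, after their values were seen. Alternatives were quantile, median and cyclic loess scaling, a filter on dim genes, the mean of probe sets, array weights, trended and robust variance, the 12 compared arrays alone, the replicate number as a block, and arrays left out. Same-numbered arrays did not deviate together (15 pairs, correlations -0.0682 to 0.0709), so the numbers were not taken as pairs.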

Additional observations from a re-analysis of the deposited data

Results flagged for a closer look

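The 1877 genes with a called interaction are themselves a difference between the responses of cells from 300 and from 600 mosmol/kg, tested directly by the interaction. Of them, 67 were called higher in the first step and lower in the second, and 110 lower in the first and higher in the second. All 67 and all 110 had a called interaction. The calls of the 10 genes with the largest opposite changes therefore follow from how they were picked. The interactions of the genes that rose and then fell were -2.96 for Mmp3, -2.90 for Havcr1, -2.06 for Cyp1a1, -1.62 for Clec4d and -1.37 for Padi1. Those of the genes that fell and then rose were 2.89 for Ccl3, 2.48 for Rnf186, 2.38 for Ptges, 1.92 for Usp18 and 1.81 for Iah1. All 10 kept their direction and their call under each of the 22 alternatives. These alternatives refit the same arrays, and the genes were picked for large changes on them, so this is no independent support. With 3 arrays in each group, single arrays standing apart were not tested for.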

How the results depend on the processing

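The interaction was called in 1877 genes (1085 positive, 792 negative). Array weights gave 3468 (1714 and 1754), with 4994 genes called in the first step, 179 that rose and then fell and 203 that fell and then rose. The 12 compared arrays alone gave 2976 (1494 negative), 154 and 173. Without the arrays numbered 3 and 9, which leaves 2 arrays per group, there were 966 (595 positive, 371 negative), 31, 42 and 4501 genes with an interval within 0.5 of 0. Fewer arrays widen the intervals; for the other settings the cause was not tested. Leaving out 1 array at a time gave 1524 to 1702 interactions (905 to 994 positive, 606 to 732 negative), 279 to 303 of at least 2-fold, 2655 to 3223 genes in the first step and 3081 to 3724 in the second, 42 to 66 that rose and then fell, 83 to 100 that fell and then rose and 6730 to 6989 within 0.5 of 0. The replicate number as a block gave 1932 (1067 positive, 865 negative), and same-numbered arrays did not deviate together. The share of positive interactions, 57.8%, ranged from 49.4% (array weights) to 62.9% (cyclic loess), and no scaling moved the median change of all genes by over 0.1.

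Of 1140 values of named genes with single arrays left out, 1103 kept direction and call, 22 lost the call, 8 gained it and 7 changed sign, over 11 genes. Of 945 under the other settings the numbers were 898, 14, 29 and 4, over 24 genes. Every change of sign was in an uncalled interaction. Cxcr2 (-0.02) became 0.0433 with the replicate block, 0.0775 without the arrays numbered 3 and 9 and lay between -0.141 and 0.0723 with single arrays left out. Slc5a3 (-0.05) became 0.0114 with cyclic loess and lay between -0.141 and 0.0160 with single arrays left out, and Cd36 (-0.18) became 0.35 with the mean of its probe sets. The interactions that gained or lost a call most often were those of Gclm, Gstm1, Dnajb1 and Slc14a2. Gclm and Dnajb1 were called in the main fit, while Gstm1 (-0.42, adjusted p = 0.0621) and Slc14a2 were not. The uncalled interactions of Ptgs2, Hspa4l and Slc4a11 passed in 2, 1 and 1 of the 22 alternatives. Median signs that depended on the scaling were those of the first step in the collecting duct, amino acid transport, p53, epithelial and intercalated lists, of the second step in the epithelial list and of the interaction in the chaperone and antioxidant lists. Called interactions with a floor value numbered 260, and 106 or 503 with the floor at the 20th or 40th percentile. Those with a ceiling value numbered 62, and 117 with the ceiling at the 98th percentile.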

Other observations

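A set of 33 measured genes of serine synthesis, one-carbon metabolism, the tRNA synthetases and their neighbours, several of them known targets of Atf4, was gathered after the values were seen and is given as a description without a test. In the first step 17 were called lower and 2 higher (median -0.25), against 13.0% and 9.4% of all genes. In the second 16 were higher and 2 lower (median 0.14), against 11.2% and 14.7%. Of the interactions 19 were positive and 1 negative (median 0.46), against 7.48% and 5.46%. As the members were picked with their values known, an excess over all genes was partly built in and is no separate evidence. Psat1 read 9.22, 9.38 and 9.46 in steady 300, 8.68, 8.93 and 8.79 after the step to 600, 9.91, 9.76 and 9.85 in steady 600 and 10.56, 10.59 and 10.61 after the step to 900. Psat1, an aminotransferase of serine synthesis, had the values -0.55, 0.75 and 1.30 for first step, second step and interaction. Its steady 600 arrays were above both groups of the first step, and its arrays after the second step were the highest. Phgdh, the enzyme that starts serine synthesis, had -0.48, 0.45 and 0.93, and the mitochondrial folate enzyme Mthfd2 -0.67, 0.48 and 1.15. The branched-chain aminotransferase Bcat1 had -0.51, 0.77 and 1.28 and the secreted peptide gene Adm2 -0.45, 1.30 and 1.75. In all, 9 of the 33 were called lower and then higher, against 0.758% of all genes.

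Genes of actin, adhesion and coagulation were likewise gathered after the values were seen. The set also holds genes of other kinds, among them Pdgfb, Jag1, Il11, Edn1, Runx1 and Nox4, which had called negative interactions. Of 29 measured, 12 were called lower and 4 higher in the first step (median -0.19), against 13.0% and 9.4% of all genes. In the second 22 were lower and 1 higher (median -0.91), against 14.7% and 11.2%. Of the interactions 3 were positive and 12 negative (median -0.34), against 7.48% and 5.46%. The members, F3 among them, were picked with their values known, so an excess over all genes was partly built in.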
